A study of Mus musculus with 10 samples.

Results

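Interferon-inducible GTPases are enzymes that bind and cleave GTP and that many cell types make in quantity after exposure to an interferon. The set described here holds 8 of them, Gbp2, Gbp2b, Gbp3 and Gbp6 of the guanylate-binding proteins and Igtp, Irgm1, Iigp1 and Ifi47 of the immunity-related GTPases. Its members are every probe set whose single gene symbol in the platform annotation was 1 of these 8 names, which gave 10 probe sets of the 22690 on the array and 8 genes of 12394. The names were chosen by their training differences on these same arrays, so the difference between trained and untrained mice is given as a description, and nothing is supported with it. The genotype, sex and interaction terms were not the values that chose them and are tested, though with earlier results of these arrays known.

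The RNA was that of the right ventricle, taken from 10 mice of the strain 129SV and hybridised to 1 Affymetrix array per mouse, in a study of how heterozygosity for plakoglobin (Jup), a protein of the contacts between heart muscle cells, bears on the response to endurance training. The trained mice were 4 labelled wildtype and 4 labelled plakoglobin (+/-), each group of 2 males and 2 females aged 6 months, which swam in water of 35 °C for a time raised from 5 to 90 min, 6 times per week. The untrained mice were 1 wildtype and 1 plakoglobin (+/-), both females aged 10 months, so a value of an untrained group has no replicate and training cannot be told apart from age. The sample titles also number the untrained mice apart from all trained mice. What these numbers stand for is not given, and anything that goes with them cannot be told apart from training either. The series describes littermate pairs of the 2 genotypes, but which mice shared a litter is not in the labels, and no mouse received an interferon per the labels. Replicate numbers follow the order of the records and are only names. In that order the trained wildtype mice were male, female, male and female, and the trained plakoglobin (+/-) mice male, male, female and female.

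Interferon-gamma, the type II interferon, binds a receptor of the subunits Ifngr1 and Ifngr2, which signals through the kinases Jak1 and Jak2. Genes that respond carry short promoter elements, among them the gamma-activated site (GAS) and the interferon-stimulated response element (ISRE), and factors such as Irf1, Irf8 and Irf9 bind the ISRE. The GTPases made in response assemble on the membranes around intracellular bacteria and parasites, directed there by the conjugation machinery of the Atg8 proteins, and help to break those membranes open. Some of the immunity-related GTPases, Igtp and Irgm1 among them, regulate the others and protect the cell's own membranes.

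Before the values, the promoters show what most of these genes have in common in sequence. RefSeq (build GRCm38.p6) gave windows of 300 bases, from 250 bases before to 50 after an annotated start of transcription, for 6 of the 8 genes, namely Gbp2, Gbp2b, Gbp3, Igtp, Irgm1 and Ifi47. The ISRE core was searched as GAAA, any 2 bases and GAAA, and the GAS core as TTCNNNGAA, on both strands. The ISRE core was found in 5 of the 6 genes, against 3.44% of 32851 windows of the same length over all genes and 3.99% of 27025 genes. The GAS core was found in 1, Igtp, against 8.30% of windows and 9.55% of genes. The stretches of 100 bases below are shown because each holds the ISRE core of a member upstream of its start. They are written 5′ to 3′ on the strand of the gene, with the core in capitals, and a core on the opposite strand reads TTTC, any 2 bases and TTTC. They are Gbp2 at chr3:142620559-142620658 (plus strand), Gbp2b at chr3:142594665-142594764 (plus), Gbp3 at chr3:142559944-142560043 (plus), Igtp at chr11:58199456-58199555 (plus) and Irgm1 at chr11:48871421-48871520 (minus):
Gbp2: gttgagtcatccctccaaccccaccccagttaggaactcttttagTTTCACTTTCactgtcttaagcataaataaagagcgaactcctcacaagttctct
Gbp2b: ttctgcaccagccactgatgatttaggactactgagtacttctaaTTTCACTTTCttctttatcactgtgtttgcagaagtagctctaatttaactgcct
Gbp3: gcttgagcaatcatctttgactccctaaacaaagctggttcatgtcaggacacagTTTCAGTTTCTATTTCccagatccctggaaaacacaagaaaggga
Igtp: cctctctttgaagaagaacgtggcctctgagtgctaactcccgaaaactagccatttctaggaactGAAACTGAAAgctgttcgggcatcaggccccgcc
Irgm1: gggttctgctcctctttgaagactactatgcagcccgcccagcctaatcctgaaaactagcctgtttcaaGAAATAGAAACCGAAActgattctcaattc

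Gbp2 and Gbp2b carried the core on the opposite strand with the same 10 bases, at -59 to -50 and at -137 to -128 from the start. Gbp3 and Irgm1 each carried 2 overlapping cores, which the capitals show as 1 run, at -45 to -30 and at -30 to -15. In Igtp the ISRE core lay at -34 to -25 and the GAS core, within the lower-case bases before it, at -45 to -37. The second annotated start of Gbp3 and the window of Ifi47 held neither core, which says only that these letters are not in those windows. In the order of RefSeq genes, Gbp7, Gbp3, Gbp2b and Gbp2 are consecutive coding genes on chromosome 3. Igtp is next to Irgm2 on chromosome 11, where Irgm1 and Ifi47 also lie, and Gbp6 is next to Gbp10 on chromosome 5. A match is a description of sequence, and whether any factor was bound in these hearts was not tested.

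**Figure D1:**
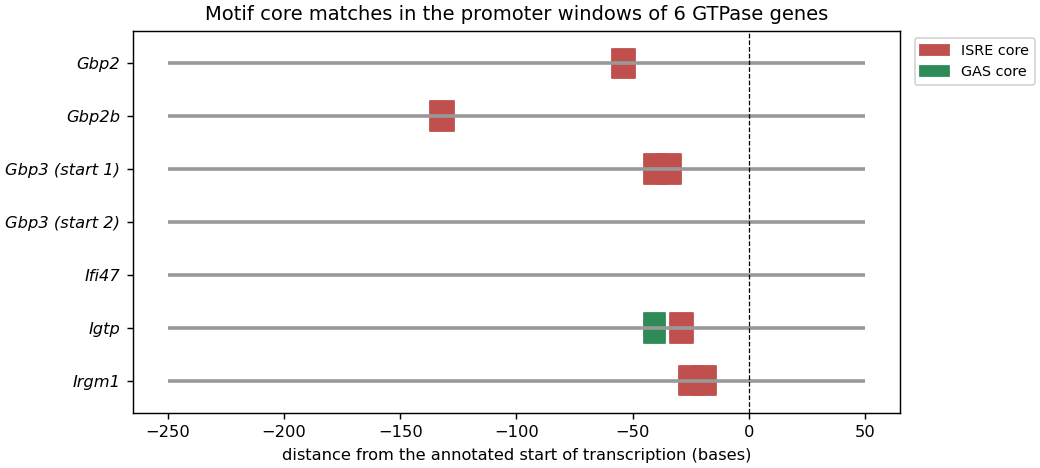
Positions of the ISRE core (red) and the GAS core (green) in the promoter windows of the 6 GTPase genes that have one, in bases from the annotated start of transcription (dashed line). Gbp3 has 2 annotated starts. Cores lie between -137 and -15, in 5 of the 6 genes.

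The arrays were checked before the members were described. Median signals of the arrays ranged from 897.85 to 1149.6. The 3′/5′ ratio of the GAPDH controls, which rises with RNA degradation or short labelling, was 2.50 to 17.8 on 3 arrays (trained wildtype replicates 1 and 2 and trained plakoglobin (+/-) replicate 1) and 0.849 to 1.02 on the other 7. The same ratio of the actin controls was 3.05 on trained wildtype replicate 1 and 2.65 on trained plakoglobin (+/-) replicate 1. On trained wildtype replicate 2, the array with the GAPDH ratio of 17.8, the actin ratio was only 1.29. All 8 heart muscle markers, such as Myh6 and Tnni3, passed the filter on dim signals, and of the 3 atrial markers Myl7 and Sln were at the floor on some arrays. Jup, the targeted gene, read 1991.7 to 3519.9 in trained plakoglobin (+/-) mice and 2928.3 to 4322.0 in trained wildtype, a log2 difference of -0.53 with p = 0.0857 by exact permutation of the labels of 8 mice (two-sided; the smallest p this can give is 0.0286). In the untrained pair the array labelled plakoglobin (+/-) read 3156.9 and that labelled wildtype 2386.8, so Jup did not separate the arrays by label, and genotypes are given as labelled throughout. Where its probe set lies relative to the disrupted part was not analysed here.

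Values below are linear signals as deposited. Differences are on the log2 scale after signals under 104, the 10th percentile of all values, were raised to it. Each comes with its standard error (SE) from a linear model over 13576 probe sets bright enough to be tested, with terms for genotype and sex. Since both untrained mice were female, the sex term makes each training difference one between trained and untrained females. "Past the threshold" means an adjusted p under 0.05 over those probe sets. All 10 member probe sets passed the brightness filter, but Gbp2b did so through its trained signals. Signals are not compared between probe sets.

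Trained hearts differed from untrained hearts in opposite directions within the set: Gbp2b, a guanylate-binding protein that was near the floor in both untrained mice, was high in all 8 trained mice, while 6 of the other 7 genes were lower in all 8 trained mice than in either untrained mouse. These were Gbp2, Gbp3, Gbp6, Igtp, Irgm1 and Iigp1. The exception over all 8 trained mice was Ifi47, which was below both untrained mice in 4 trained mice and above both in 1. The 4 below were the trained females, 1 of them only just (1213.1 against 1213.2), and the 1 above was a male. In the model for training 1 member probe set was past the threshold in the higher direction and 2 in the lower, and 0.626% of all probe sets tested were past it (0.273% higher and 0.354% lower). These were Gbp2b, Gbp2 and Igtp. Without trained wildtype replicate 4 the count was 1, Gbp2b, while calls over all 13576 probe sets fell from 85 to 50. Leaving out either untrained mouse leaves 1 untrained mouse. Fewer were then past the threshold, among the members and over all probe sets. The choice of the members used these same values, so nothing is read from these counts or from those that follow for training. The median over the 8 genes was -0.72, beside 0.00 over all 8365 genes tested, and 9 of 10 member probe sets were lower. Trained and untrained signals did not overlap at 8 of 10 member probe sets, 1 higher and 7 lower, beside 9.24% of all tested (4.63% higher and 4.61% lower). In RNA of a whole ventricle, fewer cells of a type and less RNA per cell cannot be told apart.

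Gbp2b read 113.5 in the untrained wildtype mouse and 92.5 in the untrained plakoglobin (+/-) mouse. It read 1149.6, 874.1, 1476.2 and 1110.1 in trained wildtype mice, and 1195.6, 1186.6, 1763.7 and 1087.6 in trained plakoglobin (+/-) mice. Every trained mouse was thus far above both untrained mice, with the lowest, trained wildtype replicate 2, at 874.1. The log2 difference was 3.43 (SE 0.41). Its size depends on the floor, since the untrained plakoglobin (+/-) signal lay under it and the untrained wildtype signal just above: with a floor at 351, the 25th percentile, the difference was 1.73. No fold is given, since the files hold no detection calls that would say whether the untrained signals were above background.

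Gbp2, the neighbour of Gbp2b on chromosome 3, went the other way. Its brighter probe set read 4082.5 and 3745.0 in the untrained wildtype and plakoglobin (+/-) mice. The trained wildtype mice read 1148.6, 1188.1, 1508.2 and 1261.2, and the trained plakoglobin (+/-) mice 1288.7, 1235.6, 1434.2 and 1455.7. The trained signals lay in a narrow band, 1.31-fold from lowest to highest, well under both untrained signals. The log2 difference was -1.56 (SE 0.24), 2.94-fold lower. The second Gbp2 probe set, whose suffix marks that it may also bind related transcripts, read 1188.1 and 1880.7 in untrained mice and 550.6 to 935.1 in trained mice. It differed by -1.10 (SE 0.40), and without the untrained plakoglobin (+/-) mouse by -0.60.

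The remaining guanylate-binding proteins of the set were lower by less. Gbp3 read 1194.1 and 1169.6 in the untrained wildtype and plakoglobin (+/-) mice, 672.6, 721.1, 509.1 and 880.6 in trained wildtype and 735.6, 811.1, 828.1 and 460.1 in trained plakoglobin (+/-) mice. The difference was -0.75 (SE 0.42). Gbp6 read 1268.7 and 1104.1 in the untrained mice, 634.6, 1086.6, 839.1 and 538.6 in trained wildtype and 452.1, 1017.1, 886.6 and 1002.6 in trained plakoglobin (+/-) mice. Here the groups nearly met, at 1086.6 against 1104.1, and the difference of -0.48 (SE 0.45) was about as large as its SE. It was -0.23 without trained wildtype replicate 4.

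**Figure D2:**
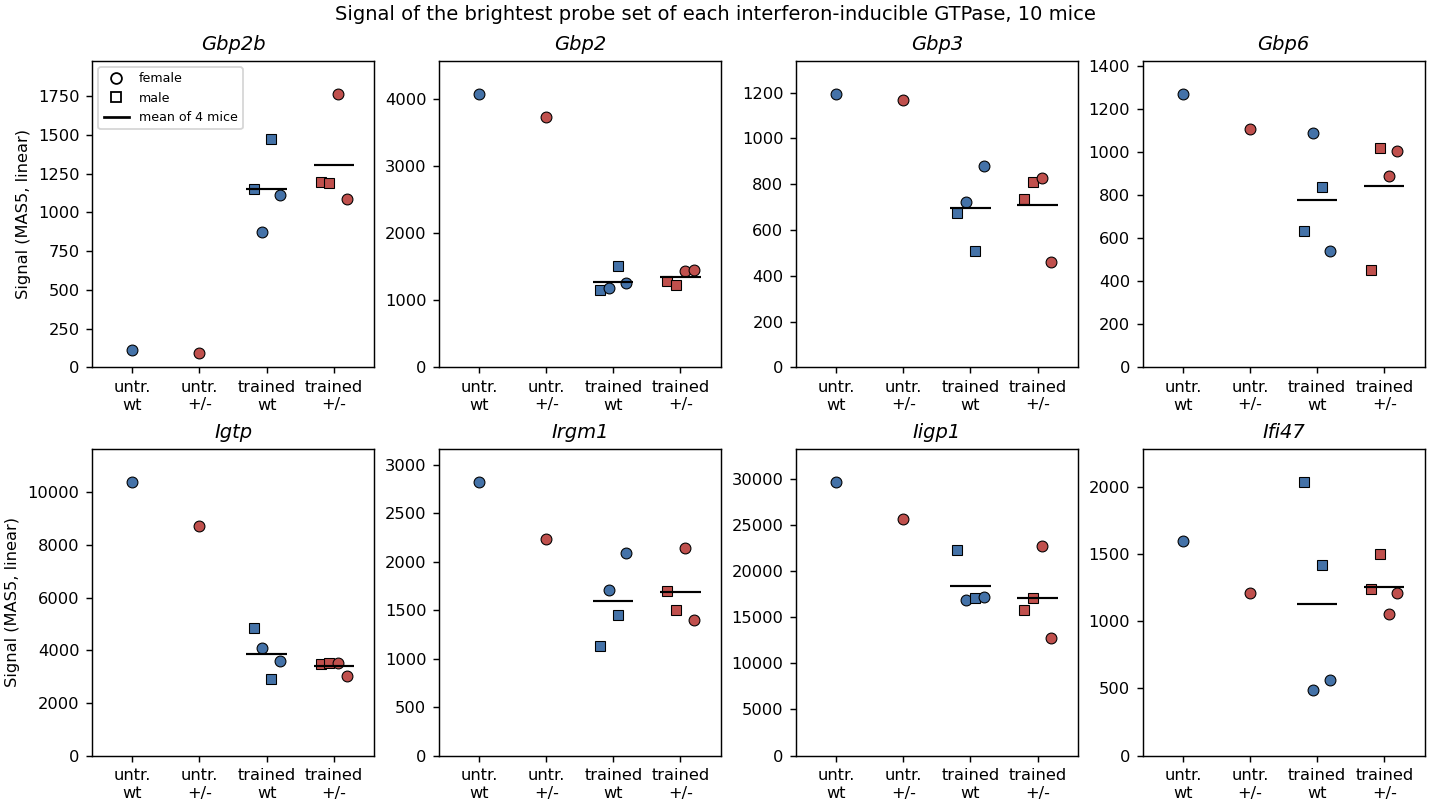
Deposited linear MAS5 signal of the brightest probe set of each of the 8 genes, 1 point per mouse, by group (wildtype blue, plakoglobin (+/-) red; circles female, squares male), with a bar at the mean of 4 trained mice. Gbp2b is at 92.5 and 113.5 in untrained mice and at 874.1 to 1763.7 in trained mice; Gbp2 and Igtp show the reverse order without overlap, and Ifi47 overlaps.

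Igtp, a regulatory member of the immunity-related GTPases also known as Irgm3, read 10386.2 in the untrained wildtype and 8721.6 in the untrained plakoglobin (+/-) mouse. It read 4843.0, 4093.5, 2907.8 and 3571.4 in trained wildtype mice and 3489.9, 3496.4, 3499.4 and 3038.9 in trained plakoglobin (+/-) mice. The highest trained signal, 4843.0, was thus well under the lower untrained one. The difference was -1.43 (SE 0.23), 2.70-fold lower. The difference of Igtp stayed between -1.48 and -1.38 with each mouse left out in turn, and that of Gbp2 between -1.66 and -1.45.

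Irgm1, the other regulator of the set, read 2824.3 and 2238.3 in the untrained wildtype and plakoglobin (+/-) mice, and 1127.1, 1713.2, 1452.2 and 2090.8 in trained wildtype mice. In trained plakoglobin (+/-) mice it read 1697.2, 1501.7, 2143.2 and 1395.7. The trained groups overlapped each other fully, and 2 trained females, at 2090.8 and 2143.2, came near the lower untrained signal. The difference was -0.47 (SE 0.28), and -0.26 without the untrained wildtype mouse.

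Iigp1, an effector that coats the vacuoles of parasites, was measured by 2 probe sets. The brighter, whose suffix marks shared sequence among transcripts of 1 gene, read 29622.0 and 25586.7 in the untrained wildtype and plakoglobin (+/-) mice. It read 22253.5, 16861.6, 17043.9 and 17168.1 in trained wildtype and 15785.4, 17038.3, 22706.0 and 12731.0 in trained plakoglobin (+/-) mice. All trained signals were lower than both untrained signals, and the difference was -0.69 (SE 0.23). The second probe set read 5407.1 and 4594.6 in untrained and 2336.3 to 4857.5 in trained mice, where 1 trained female was above the untrained plakoglobin (+/-) mouse. It differed by -0.44 (SE 0.28), and by -0.25 without trained plakoglobin (+/-) replicate 4.

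Ifi47 was the member whose trained signals spread most, with an SD of 0.71 on the log2 scale over the 8 trained mice, against 0.15 for Gbp2. It read 1599.2 and 1213.2 in the untrained wildtype and plakoglobin (+/-) mice. The trained wildtype males read 2036.7 and 1415.7 and the females 484.6 and 566.1. The trained plakoglobin (+/-) males read 1239.1 and 1502.7 and the females 1054.1 and 1213.1. All 4 trained males thus lay above all 4 trained females, and the males overlapped the untrained mice. The training difference was -0.86 (SE 0.41) with the sex term and -0.36 without it. It was -0.46 without the untrained wildtype mouse.

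The comparison by sex used only trained mice, so it did not use the contrast that chose the genes. In these mice Ifi47 averaged 1549 ± 343.4 in males and 829.5 ± 358.7 in females (SD, n = 4 each). The difference of 0.98 (SE 0.34, 95% interval 0.22 to 1.75) did not pass the adjustment over all probe sets (limma, adjusted p = 0.509). It was 1 of 10 member probe sets at which the sexes did not overlap, beside 5.89% of all tested. It was also the only one of the 10 with an unadjusted p under 0.05, beside 8.82% of all. A count of 1 in 10 is close to both shares, so no sex difference of the members is read from it. Past the threshold were 0 of 10, beside 0.0516% of all. Across single mice left out, the Ifi47 difference ranged from 0.74 to 1.18, and without the 3 arrays of high GAPDH ratio it was 0.80. The other 9 probe sets differed by sex by -0.36 to 0.09, with intervals that all spanned 0. Of the macrophage markers, 7 of 7 tested were higher in trained males, by a median of 0.35, and their summed signal was 31214.8 to 43253.3 in males and 23571.8 to 25878.9 in females. Of the list of 8 macrophage markers, Itgam was at the floor on some arrays. Other lists leaned by sex as well: heart muscle markers were lower in trained males at 8 of 8, with a median of -0.17. Endothelial markers were higher at 5 of 7, with a median of 0.06, and fibroblast markers were split, 3 higher and 3 lower. The part of any of these cells in the Ifi47 difference was not tested.

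The male and female signals of Ifi47 lay further apart in the trained wildtype mice than in the trained plakoglobin (+/-) mice. The genotype by sex term was -1.43 (SE 0.53, 95% interval -2.64 to -0.21), which did not pass the adjustment either (limma, adjusted p = 1). With 2 mice of each sex and genotype, 0 of 10 members passed for this term, beside 0% of all probe sets. An unadjusted p under 0.05 was reached by 1 of 10 members, beside 2.66% of all. That member was Ifi47, and nothing is read from a count of 1.

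The genotype comparison asked whether the GTPases differed between trained plakoglobin (+/-) and trained wildtype mice. None of the 10 probe sets passed (limma, adjusted p = 1 for each), where 0% of all probe sets did, and 0 of 10 had an unadjusted p under 0.05, beside 2.01% of all. At 0 of 10 did the groups separate without overlap, beside 1.6% of all. Gbp2b averaged 1152.5 ± 247.7 in wildtype and 1308 ± 307.5 in plakoglobin (+/-) mice (SD, n = 4 each), a difference of 0.18 with a 95% interval of -0.43 to 0.79. Gbp2, at 1277 ± 161.3 and 1354 ± 108.1, differed by 0.09 (interval -0.40 to 0.58). Igtp, at 3854 ± 818.7 and 3381 ± 228.2, differed by -0.17 (interval -0.62 to 0.29). All 3 intervals held 0. The widest was that of Gbp6, 0.10 with an interval of -0.80 to 0.997. Ifi47 had the largest difference, 0.40 (interval -0.37 to 1.16), with an SD of 739.0 in wildtype and 185.9 in plakoglobin (+/-) mice.

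**Figure D3:**
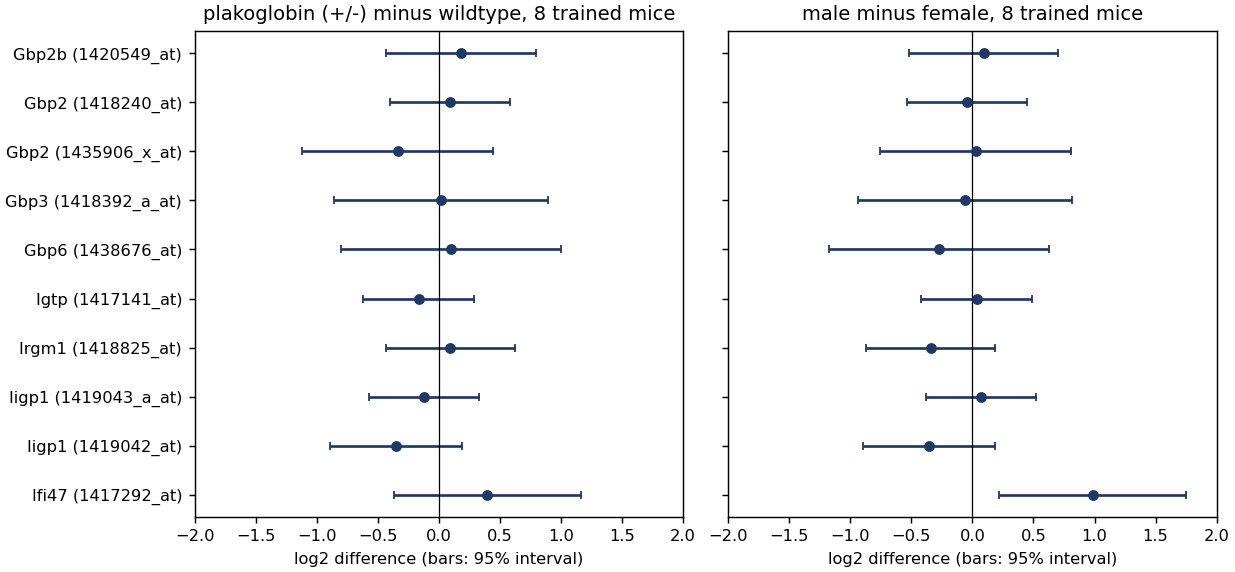
Log2 differences of the 10 member probe sets among the 8 trained mice, plakoglobin (+/-) minus wildtype (left) and male minus female (right), with 95% intervals from limma. All 10 genotype intervals span 0, and the only sex interval that does not is that of Ifi47, 0.22 to 1.75.

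The untrained pair, 1 mouse of each genotype, could be set side by side only as values. The mouse labelled plakoglobin (+/-) was lower at 9 of 10 member probe sets, beside 50.5% of all tested, and the median difference was -0.21, beside -0.01. The largest were Ifi47 (-0.40) and Irgm1 (-0.34), and the exception was the second Gbp2 probe set, at 0.66. The 9 values come from the same pair of arrays, so they are not 9 replicates. The genotype by training term, which tests whether the training difference depended on genotype, was past the threshold at 0 of 10 (limma, adjusted p = 1 for each), beside 0% of all, and 0 had an unadjusted p under 0.05, beside 3.2%. With 1 untrained mouse of each genotype, this term assumes that untrained mice vary like trained mice. It therefore cannot show that the training difference was alike in both genotypes. Over the brightest probe set of each gene the term ranged from 0.05 (SE 0.79) at Gbp3 to 0.80 (SE 0.75) at Ifi47. At the second Gbp2 probe set its 95% interval was -2.51 to 0.51.

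Among trained mice no single animal was high or low throughout. Trained plakoglobin (+/-) replicate 3, a female, was the highest of the 8 for 3 genes (Gbp2b, Irgm1 and Iigp1) and above the trained median for 7 of 8. Trained plakoglobin (+/-) replicate 4, also a female, was above it for 2 of 8 and lowest for Gbp3 and Iigp1. Trained wildtype replicate 1, a male, was highest for Igtp and Ifi47 and lowest for Gbp2 and Irgm1. The root mean square (RMS) difference of log2 signals, each gene centred on its own mean over the 10 mice, was 1.63 to 2.03 between Gbp2b and each of the other 7 genes. The untrained mice are among the 10, so this distance holds the training difference that chose the genes.

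The genes most like Gbp2b over the 10 mice, out of 8357 others, were not GTPases. They were Mboat2, an acyltransferase of phospholipids (RMS difference 0.45), Lefty1, a secreted inhibitor of Nodal signalling (0.47), and Pam, which amidates peptide hormones (0.50). Slc30a1, a zinc exporter (0.54), and Nppa, which encodes atrial natriuretic peptide (0.54), followed. All 5 had untrained signals below every trained signal, as in Mboat2 with 570.6 and 328.0 against 1933.7 to 4045.0. This follows from the ranking, which used all 10 mice and so the gap between trained and untrained signals. The rankings below used the same 10 mice. For the mean of all 8 genes, in which Gbp2b offsets the rest, the closest were Rnase4 (0.11), Epdr1 (0.12), Mark1 (0.13), Pard3 (0.13) and Hspd1 (0.13). For the mean of the 7 genes other than Gbp2b, a choice made after the values were seen, they were Ctsh, a lysosomal protease (0.10), Lgr6 (0.13), Vwa1 (0.13), Cenpf (0.14) and Sftpb (0.15). Ctsh read 6278.2 and 4943.6 in the untrained wildtype and plakoglobin (+/-) mice and 2715.8 to 3761.4 in trained mice.

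**Figure D4:**
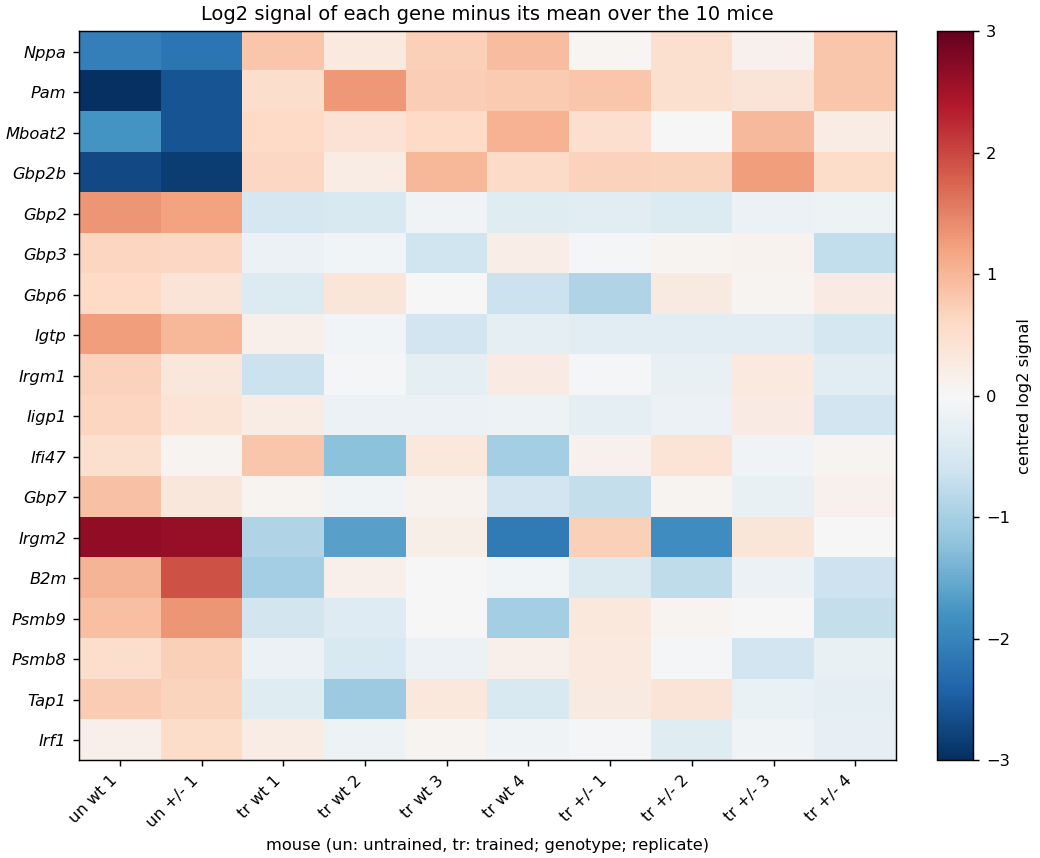
Log2 signal of each gene minus its mean over the 10 mice (red above, blue below the mean), for the 8 GTPases, 3 of the genes most like Gbp2b (Nppa, Pam, Mboat2) and 7 interferon-related genes. These 7 were picked and each had a negative training difference. Interferon genes that were higher in trained mice, such as Ciita (0.87) and Psme1 (0.36), are not shown. Gbp2b shows the pattern of the top rows, low in both untrained mice; Gbp2 and Igtp show the opposite.

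Other GTPases of the families were few on the array: of a list of 13, 5 were on it and 1, Gbp7, was bright enough to be tested. Gbp7, the neighbour of Gbp3, read 2217.3 and 1510.2 in the untrained wildtype and plakoglobin (+/-) mice and 729.6 to 1319.2 in trained mice, a difference of -0.80 (SE 0.35) that was not past the threshold. Its second probe set read 2313.3 and 2326.3 against 420.6 to 920.6, a difference of -1.90 (SE 0.36), and was past it. Irgm2, the neighbour of Igtp and also a regulator, was under the brightness filter and was singled out after its values were seen. It read 2856.3 and 2768.3 in untrained mice and 73.0 to 746.6 in trained mice (median 344.05), with 1 trained signal at the floor. In a fit without the filter it was not past the threshold. Mx1, Mx2 and Gbp8 were also under the filter, and their trained and untrained signals overlapped.

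The other targets of interferon-gamma on a list of 13, which serve antigen presentation and immune signalling, were mostly lower as well. Of the 8 tested, 7 were lower and 1 higher, by a median of -0.84, and 0 were past the threshold. In 6 of the 8 every trained mouse was below both untrained mice, beside 4.61% of all probe sets tested. B2m, the light chain of class I molecules, read 46892.1 and 86313.7 in the untrained wildtype and plakoglobin (+/-) mice and 11414.3 to 25650.7 in trained mice (-1.65, SE 0.33). Psmb9, a subunit of the immunoproteasome, read 1859.2 and 2485.8 against 489.6 to 1231.6 (-1.64, SE 0.36). Tap1, which carries peptides into the endoplasmic reticulum, read 2640.3 and 2462.8 against 725.1 to 2013.2 (-1.23, SE 0.30). Under the brightness filter, and singled out after their values were seen, were the chemokine Cxcl9 (1338.2 and 1245.2 against 120.5 to 715.6) and the checkpoint ligand Cd274 (1869.7 and 1221.2 against 61.5 to 398.0). The other 2 under the filter overlapped, Cxcl10 at 150.5 and 736.6 against 71.5 to 573.1 and Ido1 at 1157.6 and 607.1 against 221.5 to 725.1. With cyclic loess normalization, and in several other settings, 1 of the 8 was past the threshold.

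The upstream genes of the pathway differed in both directions. Of 8 genes of type II interferon signalling tested, 3 were higher and 5 lower in trained mice, the median being -0.09, and 0 were past the threshold. The ligand Ifng was under the brightness filter, at 303.0 and 699.1 in untrained and 80.5 to 764.1 in trained mice, and these overlapped. The receptor subunit Ifngr1 differed by -0.13 (SE 0.23), and the probe sets of Ifngr2 disagreed, at -0.47 (SE 0.51) and 0.48 (SE 0.37). Jak2 differed by 0.17 (SE 0.36). The transcription factor Irf1 read 6356.3 and 8288.5 in untrained and 4408.0 to 6639.2 in trained mice (-0.51, SE 0.22). Irf8 differed by -0.58 (SE 0.29) and Ciita, the activator of class II genes, by 0.87 (SE 0.52).

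Of 8 genes of type I interferon signalling, 2 were higher and 6 lower, by a median of -0.30, with 0 past the threshold. The largest were Usp18, a negative regulator of the receptor, at -0.84 (SE 0.43), Stat2 at -0.69 (SE 0.47) and Irf3 at -0.60 (SE 0.25). The Atg8 conjugation genes, which direct the GTPases to vacuoles, had a median near that of all genes: of 11 tested, 4 were higher and 7 lower, by a median of -0.07. Their largest differences were -0.41 (SE 0.35) for Gabarap, 0.39 (SE 0.35) for Atg5 and -0.34 (SE 0.25) for Atg16l1. Of 4 inflammasome genes tested, 2 were higher and 2 lower, by a median of 0.02, with Nlrp3 at 0.54 (SE 0.64). Neither of these 2 lists had a tested member past the threshold. Casp1, Casp4 and Aim2 of the inflammasome list were under the brightness filter. Casp4, singled out after its values were seen, read 542.1 and 675.6 in untrained and 43.5 to 445 in trained mice, with 3 trained signals at the floor. Casp1 and Aim2 overlapped.

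**Figure D5:**
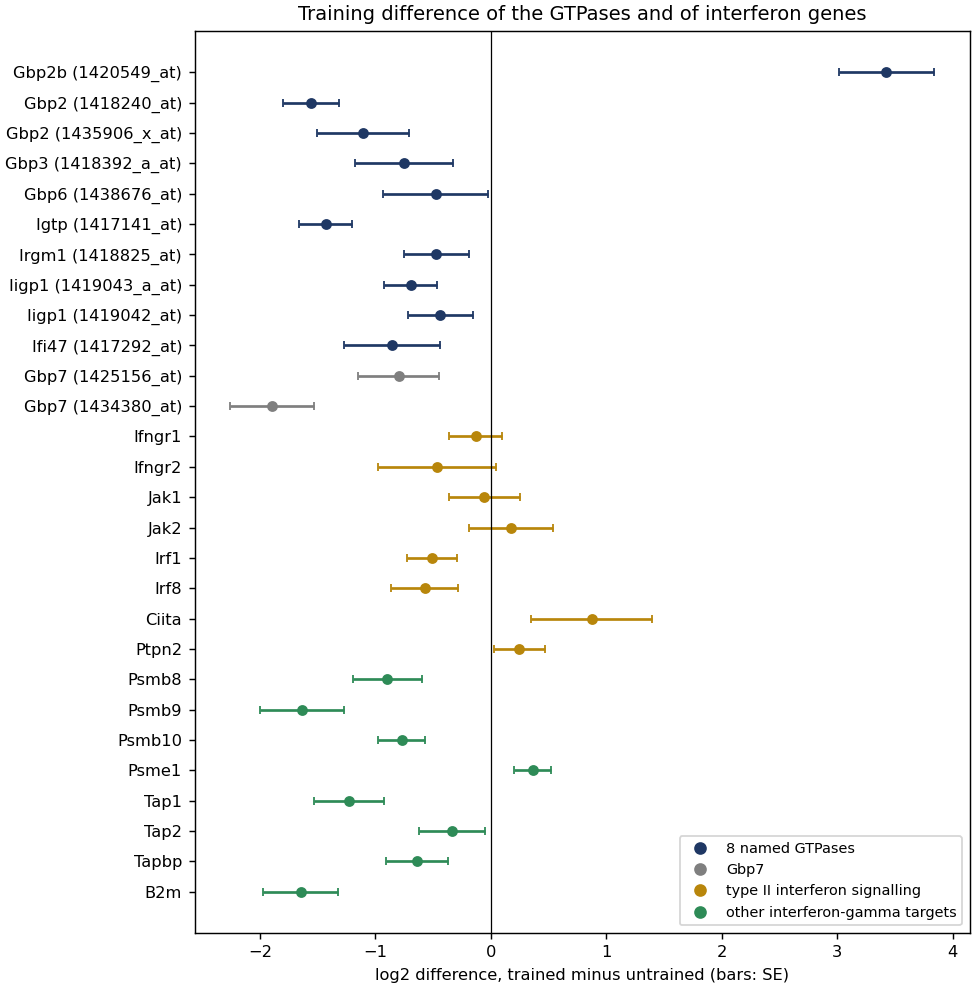
Log2 difference of trained minus untrained mice with its SE for the 10 member probe sets, both Gbp7 probe sets and the tested genes of the lists of type II interferon signalling and other interferon-gamma targets, in a fit with genotype and sex. Gbp2b lies at 3.43, the other members at -0.44 to -1.56, and the signalling genes on both sides of 0.

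Markers of the cells that can carry these GTPases were read beside them. Of 7 macrophage markers tested out of a list of 8, 6 were lower and 1 higher in trained mice, the median being -0.52, among them Ptprc, shared by all leukocytes (-1.30, SE 0.48), and Adgre1 (-0.90, SE 0.23). Their summed signal was 35541.7 and 34753.9 in the untrained wildtype and plakoglobin (+/-) mice and 23571.8 to 43253.3 in trained mice, so the ranges overlapped. The overlap came from the trained males, at 31214.8 to 43253.3. The trained females, at 23571.8 to 25878.9, were below both untrained mice, which were females. Without the sex term the median was -0.20. Endothelial markers were lower at 7 of 7, by a median of -0.25, with Kdr at -1.03 (SE 0.29) and a summed signal of 32001.9 and 36610.6 against 27295.4 to 33950.1. None of the 9 T and NK cell markers on the array passed the brightness filter, 4 of them (Cd2, Nkg7, Gzma and Klrd1) were at the floor on some arrays, and their summed signal was 2382.7 and 2235.6 in untrained and 2502.6 to 4156.9 in trained mice. Fibroblast markers had a median of -0.20 over 6 genes, heart muscle markers of -0.13 over 8 and smooth muscle markers of 0.18 over 3. Of the B cell markers 1 was higher and 1 lower, and Myl4, the only atrial marker tested, differed by 0.19 (SE 0.28). No marker was past the threshold for training, and the part of any of these cell types in the GTPase differences was not tested.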

How the data were processed

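The deposited values are linear intensities, 1 per probe set and mouse, which the authors made with MAS5 version 5.0, per the submitters' processing notes. On each array the mean after dropping the lowest and highest 2% was alike, so the authors' values had been scaled to a common level. No detection calls or genome build are given in the sources used here, and the number of arrays limits the precision.

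Of 22690 probe sets, 64 controls were left out, 20393 carried 1 symbol in the platform annotation, 691 several and 1606 were not listed; 0 of those with several named a member. Signals were floored at 104, log2 transformed and filtered at the 40th percentile of mean log2 signal, which left 13576 probe sets. Linear models were fitted with limma 3.58.1 in R 4.3.3 (lmFit, then eBayes with trend), two-sided, with Benjamini-Hochberg adjustment over all of them. Training used all 10 mice with genotype and sex terms; genotype and sex used the 8 trained mice. A gene is represented by its brightest probe set. The pipeline was tested on simulated data.

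The members, the 6 pathway and 8 marker lists and the tests were chosen with earlier results of these data known. Named are all member probe sets, Jup, list members past the threshold and up to 3 per list of largest training difference, Ifng, Ifngr1, Ifngr2, Irf1 and Jak2, and the 5 genes of smallest RMS difference of centred log2 signals from Gbp2b and from the members' mean. Alternatives were other normalizations (quantile, cyclic loess), log2(signal + 1) with no floor, the 25th percentile as floor, a filter set at the 60th percentile or dropped, eBayes robust or with no trend, no sex term, females only, all 10 mice in 1 fit, the GAPDH ratio as a covariate or its 3 high arrays left out, and each mouse left out in turn.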

Additional observations from a re-analysis of the deposited data

Results flagged for a closer look

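The signals of each member probe set and of Jup were checked in each trained group of 4 mice. These 22 checks used the same 8 mice. In 4 of the 22, 1 mouse stood far from the other 3 relative to the range of the group, a mark that chance alone gives at times. Gbp2b read 1763.7 in trained plakoglobin (+/-) replicate 3, a female, where the other 3 read 1087.6 to 1195.6. The same mouse read 4857.5 for Iigp1 at its second probe set, where the other 3 read 2336.3 to 2588.8. Igtp read 3038.9 in trained plakoglobin (+/-) replicate 4, under the other 3 at 3489.9 to 3499.4, which lay unusually close together. At the brighter Iigp1 probe set trained wildtype replicate 1, a male on an array of high GAPDH ratio, read 22253.5, above the other 3 at 16861.6 to 17168.1.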

How the results depend on the processing

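Of 215 alternative values of the members' training differences, 204 kept their direction and their side of the threshold and 11 kept the direction but were no longer past it. The count of members past the threshold for training, on values the choice of members used, was 3, beside 85 of all 13576 probe sets. It was 1, Gbp2b, without trained wildtype replicate 4, beside 50 of all. It was 2, Gbp2 and Gbp2b, without trained plakoglobin (+/-) replicate 3 (51 of all) and also without replicate 4 of that group (53 of all). With either untrained mouse left out, which leaves 1, fewer members and fewer of all probe sets were past it. The count was 2, Gbp2 and Igtp, with the floor at the 25th percentile (93 of all), with females only (91) and with the filter at the 60th percentile (74 of 9051). That filter left 5 member probe sets to test. In every other setting run the count was 3. For genotype, sex and both interaction terms the count was 0 in every setting run. The p of the Jup check ranged from 0.0286 (without trained plakoglobin (+/-) replicate 2) to 0.143 with each trained mouse left out. Of the genotype values 15 of 195 turned sign, and of the sex values 17 of 185, none past the threshold either way. The genotype difference of Gbp3 was -0.063 with quantile and -0.069 with cyclic loess normalization. Without the 3 arrays of high GAPDH ratio, genotype differences turned to -0.011 for Gbp2, -0.00495 for Gbp3, 0.039 for Igtp and -0.14 for Irgm1, and sex differences to 0.34 for Gbp6, -0.070 for Igtp and -0.00273 for the brighter Iigp1 probe set. With each trained mouse left out, genotype differences ranged from -0.020 to 0.32 for Gbp2b, -0.14 to 0.26 for Gbp3, -0.15 to 0.37 for Gbp6, -0.32 to 0.018 for the brighter Iigp1 probe set and -0.023 to 0.26 for Irgm1. Sex differences ranged from -0.15 to 0.00319 for the brighter Gbp2 probe set, -0.090 to 0.13 for the second, -0.041 to 0.29 for Gbp2b, -0.31 to 0.10 for Gbp3, -0.52 to 0.00288 for Gbp6, -0.10 to 0.20 for Igtp and -0.071 to 0.26 for the brighter Iigp1 probe set. The cause of these changes was not tested. No paired analysis was possible because litters are not named in the labels.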
